A study of Homo sapiens with 21 samples.

Results

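The long arm of chromosome 18 carries a run of neighbouring genes from RNF138 to RELCH, and 55 named genes of this run were followed in clones of the established human glioblastoma line U-87MG. The members were chosen from measured values, namely the log2 difference of each clone from vector clone V22 of the same array series, examined gene by gene along the chromosome. Those differences are therefore given as a description, with no test. Of the 55 genes, 54 were measured (56 probe sets) among 18374 measured genes, and the level of RNF125 was not analysed here. Each gene was represented by its brightest probe set, and a gene was kept for medians where its mean over the 21 arrays exceeded a log2 value of 7, which 40 members and 8719 genes of the series did. The others are called dim.

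Total RNA was taken from cells plated for 24 h, and transcripts were measured on Affymetrix whole-transcript arrays as RMA intensities, used here as log2 values. The parkin clones PK7, PK19 and PK25 stably express parkin, a ubiquitin ligase, and the vector clones V8, V17 and V22 carry the vector alone, all in U-87MG. Each clone is 1 line with 3 arrays in a series, which the labels do not describe as separate cultures, and p-values from them hold array-to-array spread alone. The array file names were read here as 2 series, a reading that is an assumption: the 9 parkin arrays lay in the second, V8 and V17 in the first, and V22 in both. Parkin and the series can be told apart through V22 alone.

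The array medians lay between 6.21 and 6.37. All 8 measured genes of a glioma list (VIM, CD44 and CHI3L1 among them) had means between 7.51 and 13.1. Of 8 astrocyte and oligodendrocyte markers only SLC1A3 passed 7, at 8.24, while GFAP stood at 6.29, SOX2 at 6.21 and OLIG2 at 5.66. Among markers of blood, epithelium, endothelium and neurons, CD68 (11.3) and SNAP25 (7.93) passed 7, and PTPRC, the general leukocyte marker, stood at 3.12. The introduced gene's own transcript was not analysed here.

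The run holds genes of many functions, some of which work in the same pathway. SMAD4 is the common partner of receptor-activated SMADs, SMAD2 carries the TGF-beta and activin signal into the nucleus with it, and SMAD7 is the inhibitor that blocks the receptors. MBD1 and MBD2 bind methylated CpG, PIK3C3 is the lipid kinase that starts autophagosome formation, and LMAN1 is a cargo receptor between the endoplasmic reticulum and the Golgi. Deletions of the arm that remove SMAD4 are well known in pancreatic and colorectal cancer.

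In PK19 most members were higher than in V22, and in the other 4 clones their median difference was 0.12 or lower. Over the 40 kept members the median log2 difference from V22 was 0.72 in PK19, a 1.65-fold level, against -0.02 over all 8719 kept genes. It was 0.08 in PK7 and -0.05 in PK25, where all kept genes stood at -0.05 and -0.03. Without single arrays, the PK7 median lay between 0.025 (without PK7 set 3) and 0.12, and was 0.039 without V22 set 5 and 0.055 without PK7 set 1. The PK25 median was 0.038 without PK25 set 3, and -0.10 to -0.03 without any other array. Of the vector clones, V8 had a member median of 0.12 and V17 of 0.03, beside -0.01 and 0.02 over all genes. In PK19, 37 of the 40 kept members (92.5%) were above 0, as were 46.6% of all kept genes, and 28 of them exceeded the 95th percentile of all genes, 0.57. In V8, 31 of the 40 kept members (77.5%) were above 0, beside 40 of the 50 kept genes before RNF138 on the same chromosome (80.0%) and 48.4% of all kept genes.

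The PK19 arrays gave like medians. Over the kept members, the median difference from the V22 mean of the second series was 0.67, 0.70 and 0.77 on the PK19 arrays, beside 0.03, -0.06 and 0.04 on the V22 arrays themselves. It was 0.10, -0.03 and 0.14 on the PK7 arrays and 0.02, 0.02 and -0.17 on the PK25 arrays. All 3 PK19 arrays lay far above every other array, and the lowest values of PK7 and PK25 came from arrays whose all-gene medians were low too, both at -0.11. On each PK19 array 36 of the 40 kept members were above the V22 mean. RNA was taken in bulk, so a higher level in every cell and in a share of the cells cannot be told apart.

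**Figure D1:**
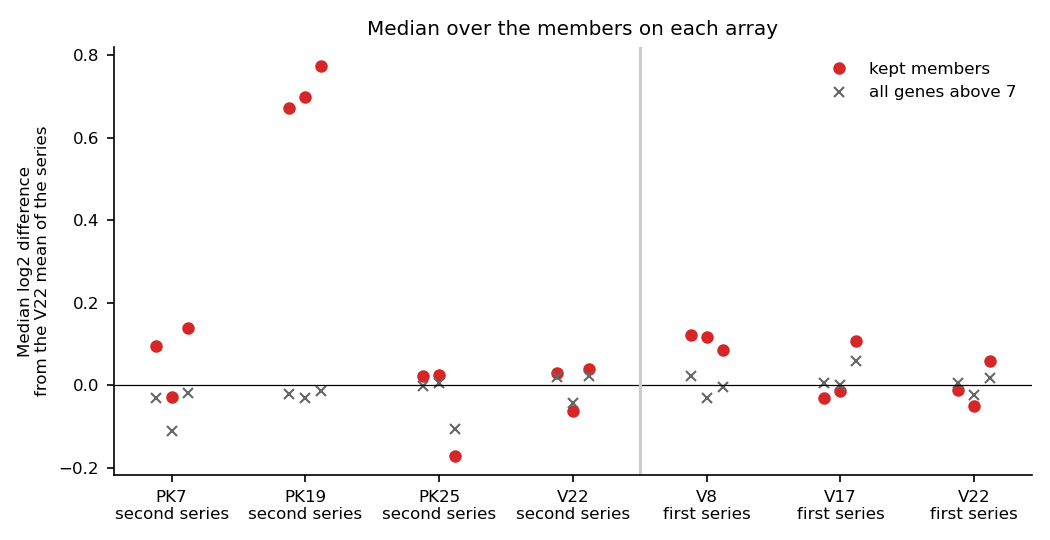
Median log2 difference of the kept members (filled) and of all genes above 7 (crosses) from the V22 mean of the same series, 1 point per array, with the second series on the left and the first on the right. The 3 PK19 arrays stand at 0.67 to 0.77 while their all-gene medians are near 0.

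Members called by limma at an adjusted p under 0.05 over all 26947 probe sets are counted here beside the share of all probe sets called. In PK19, 38 members were called higher and 3 lower, where 6.65% and 7.40% of all probe sets were. The members had been chosen on the differences of every clone from V22, so nothing is read from this count or from those that follow. For PK7 the counts were 11 and 2 (7.11% and 8.11% of all, 15.2% together), for PK25 0 and 1 (0.427% and 0.939%, 1.37% together), for V8 3 and 1 (3.78% and 4.22%), and for V17 0 and 0, with 0% of all called and no member at an unadjusted p under 0.05. The PK7 count fell to 7 without V22 set 5 and to 8 without PK7 set 2, and the 1 PK25 call was lost without any 1 of the V22 arrays or without PK25 set 3. The arrays of PK19 and V22 did not overlap in 42 members with PK19 higher and 4 with PK19 lower, against 15.5% and 15.7% of all probe sets. The counts without overlap were 19 and 7 in PK7 (15.5% and 16.9% of all), 2 and 8 in PK25 (7.74% and 8.51%), 12 and 4 in V8 (12.2% each way) and 3 and 2 in V17 (5.68% and 3.03%).

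The run was not uniform in PK19. Of its first 8 measured members, RNF138 to INO80C, 6 had negative differences, while DTNA (0.47) and MAPRE2 (0.20) lay above V22 without overlap, and most of the 46 from RPRD1A to RELCH were above V22. The 5 kept members of the first stretch had a median of -0.31, and the 35 of the second a median of 0.75, with all 35 above 0 (0.05 to 1.72). The place of this step was chosen after the values were seen and has no test. Between INO80C and RPRD1A lie non-members, of which GALNT1, which starts mucin-type glycosylation, was kept and differed by 0.03. The dim MIR187 differed by 0.12, and the dim RMP24, next to RPRD1A, by 0.70. With dim genes counted, the higher values thus began before RPRD1A.

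Outside the named members the same chromosome gave further values in PK19. The 50 kept genes before RNF138 had a median of -0.08, with 36.0% of them above 0, and the 21 kept genes after RELCH had a median of 0.67, with 20 of 21 above 0. The 8 other kept genes between RPRD1A and RELCH had a median of 0.53. Among these 8, ATP5F1A, the alpha subunit of mitochondrial ATP synthase, differed by 0.70 and NARS1, the cytosolic asparagine tRNA ligase, by 0.90, while SIGLEC15, a sialic acid-binding lectin, stood at 3.14 and PMAIP1, the pro-apoptotic protein NOXA, at -1.19. The higher values therefore began inside the run and went on past its end.

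The 3 nearest measured genes on each side were not above 0.11 in PK19. Before the run, TRAPPC8, a subunit of a trafficking complex, differed by -0.13 in PK19, the dim SLC25A52 by -0.17, and B4GALT6, a lactosylceramide synthase, by -1.23 (-0.98 in PK7). After it, the dim TNFRSF11A, which encodes the receptor RANK, differed by 0.11, ZCCHC2 by -0.02 and PHLPP1, a phosphatase of AKT, by 0.09. Farther on, KDSR, an enzyme of sphingolipid synthesis, stood at 1.05, VPS4B, an ATPase of endosomal sorting, at 0.95 and TXNL4A, a spliceosome protein near the end of the chromosome, at 1.03. SERPINB7 was the highest of the genes after RELCH at 4.20, and differed from V22 in the other clones as well (3.05 in PK7, 1.43 in PK25 and 1.87 in V8).

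**Figure D2:**
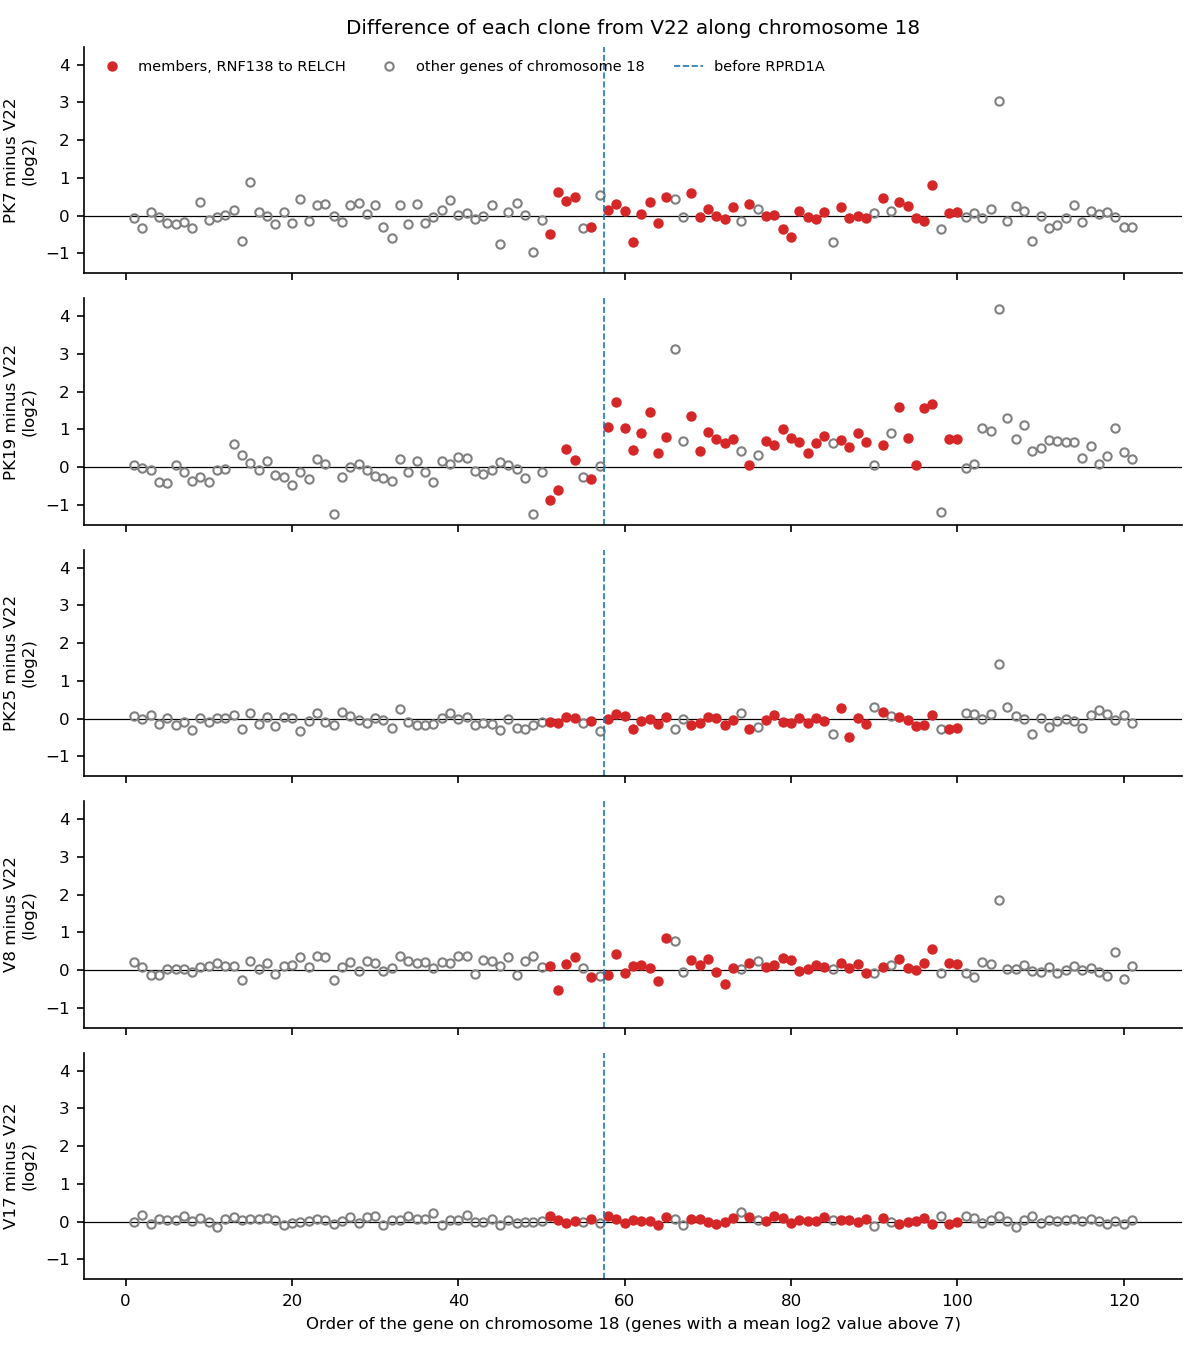
Log2 difference of each clone from V22 of the same series for the kept genes of chromosome 18 in their order on the chromosome, with members filled and other genes open. In PK19 the values step up at RPRD1A (dashed line) to a median of 0.75 over the kept members from there on, and in the other 4 clones most of them lie around 0.

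The promoters on either side of the step are shown because they belong to the last kept member of the lower stretch and the first 3 members of the higher one. They are RefSeq sequences of GRCh38.p14, from 250 bases before to 50 after the start, in the direction of transcription, with GGGCGG or its reverse complement CCGCCC in capitals. That of ZNF24 lies at chr18:35344371-35344670 on the minus strand, that of RPRD1A at chr18:36067510-36067809 on the minus strand, that of SLC39A6 at chr18:36129291-36129590 on the minus strand, and that of ELP2 at chr18:36129649-36129948 on the plus strand.
ZNF24: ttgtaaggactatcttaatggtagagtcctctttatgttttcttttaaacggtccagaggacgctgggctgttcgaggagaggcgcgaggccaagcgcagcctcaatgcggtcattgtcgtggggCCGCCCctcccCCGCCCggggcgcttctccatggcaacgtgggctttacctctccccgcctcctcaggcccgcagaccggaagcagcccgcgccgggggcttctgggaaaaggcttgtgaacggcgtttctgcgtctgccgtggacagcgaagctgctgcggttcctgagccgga
RPRD1A: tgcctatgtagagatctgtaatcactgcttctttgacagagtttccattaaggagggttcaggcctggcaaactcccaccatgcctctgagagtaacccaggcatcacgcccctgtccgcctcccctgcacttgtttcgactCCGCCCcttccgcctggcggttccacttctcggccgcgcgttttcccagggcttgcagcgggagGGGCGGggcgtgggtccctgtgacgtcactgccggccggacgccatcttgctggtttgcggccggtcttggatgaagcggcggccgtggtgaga
SLC39A6: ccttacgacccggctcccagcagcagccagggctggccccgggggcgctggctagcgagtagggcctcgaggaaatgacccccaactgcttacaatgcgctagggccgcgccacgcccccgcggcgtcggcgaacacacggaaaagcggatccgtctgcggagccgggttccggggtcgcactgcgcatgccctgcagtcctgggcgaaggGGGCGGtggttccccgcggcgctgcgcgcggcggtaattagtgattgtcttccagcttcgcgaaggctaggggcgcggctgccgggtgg
ELP2: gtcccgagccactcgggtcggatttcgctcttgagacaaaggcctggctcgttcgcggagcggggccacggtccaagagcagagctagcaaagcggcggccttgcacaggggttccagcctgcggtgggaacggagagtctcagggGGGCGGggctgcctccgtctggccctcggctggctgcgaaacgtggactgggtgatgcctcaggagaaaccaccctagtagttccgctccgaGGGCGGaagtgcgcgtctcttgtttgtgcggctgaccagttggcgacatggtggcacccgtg

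The 4 promoters hold 26, 22, 37 and 26 CpG dinucleotides in the order shown, and each holds at least 1 GGGCGG or CCGCCC. This motif is known as the GC box, which SP1-family factors bind. A promoter sequence was at hand for 49 members, RNF125 among them. Of these 49, 40 (81.6%) held the GC box on either strand, as did 45.0% of all 35116 promoters of that length. The median CpG count was 27 in members and 14 in all. TATAAA or TTTATA was found in 2 members (4.08%, against 11.5% of all) and CCAAT or ATTGG in 18 (36.7%, against 34.6%). The 35116 promoters were not limited to measured or protein-coding genes, as all measured members are. These shares thus compare unlike sets, and a trait of the run was not tested. ATTGG can share its last bases with GGGCGG, and the matches describe letters only. The promoter of ZNF24, a member below V22 in PK19, carried 2 such boxes, as did those of RPRD1A and ELP2, while that of SLC39A6, the member with the highest difference, carried 1.

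Some members share a promoter region with a neighbour on the other strand. SLC39A6 and ELP2 start 559 bases apart and differed from V22 in PK19 by 1.72 and 1.03. PIGN and RELCH start 199 bases apart and stood at 0.75 and 0.76, and PIAS2 and the dim KATNAL2, 87 bases apart, at 1.36 and 0.39. HAUS1, a dim member, starts 158 bases from the non-member ATP5F1A, and the pair stood at 0.77 and 0.70.

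The SMAD genes were the first group by role, and all 3 stood above V22 in PK19 (median 0.66). SMAD2 had log2 levels of 8.79, 8.67 and 8.80 in PK7, of 9.41, 9.52 and 9.57 in PK19, and of 8.83, 8.79 and 8.72 in PK25, against 8.74, 8.74 and 8.82 in V22 of the second series. In the first series it had 8.64, 8.51 and 8.58 in V8 and 8.53, 8.53 and 8.65 in V17, against 8.62, 8.55 and 8.71 in V22. Only the PK19 arrays were apart, 0.74 above V22, and a dimmer second SMAD2 probe set differed by 0.81.

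SMAD4 had levels of 9.21, 9.00 and 9.23 in PK7, of 9.69, 9.69 and 9.69 in PK19, and of 9.06, 9.16 and 8.90 in PK25, against 9.00, 8.98 and 9.11 in V22 of the second series. The first-series values were 9.02, 8.94 and 9.02 in V8 and 8.90, 9.13 and 9.16 in V17, against 8.97, 9.05 and 9.04 in V22. PK19 was 0.66 above V22, a 1.58-fold level, with near-identical arrays, while every other clone overlapped V22.

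SMAD7, just inside the level of 7 with a mean of 7.04, had levels of 7.02, 7.02 and 6.87 in PK7, of 7.90, 7.29 and 7.96 in PK19, and of 7.04, 6.61 and 7.02 in PK25, against 7.14, 6.80 and 7.25 in V22 of the second series. It had 6.74, 6.50 and 6.67 in V8 and 6.97, 6.98 and 7.02 in V17, against 6.91, 7.19 and 6.94 in V22 of the first series. The PK19 arrays were above V22 by 0.65 on average, yet the lowest of them was close to the highest V22 array, and V8 lay below V22 (-0.37).

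**Figure D3:**
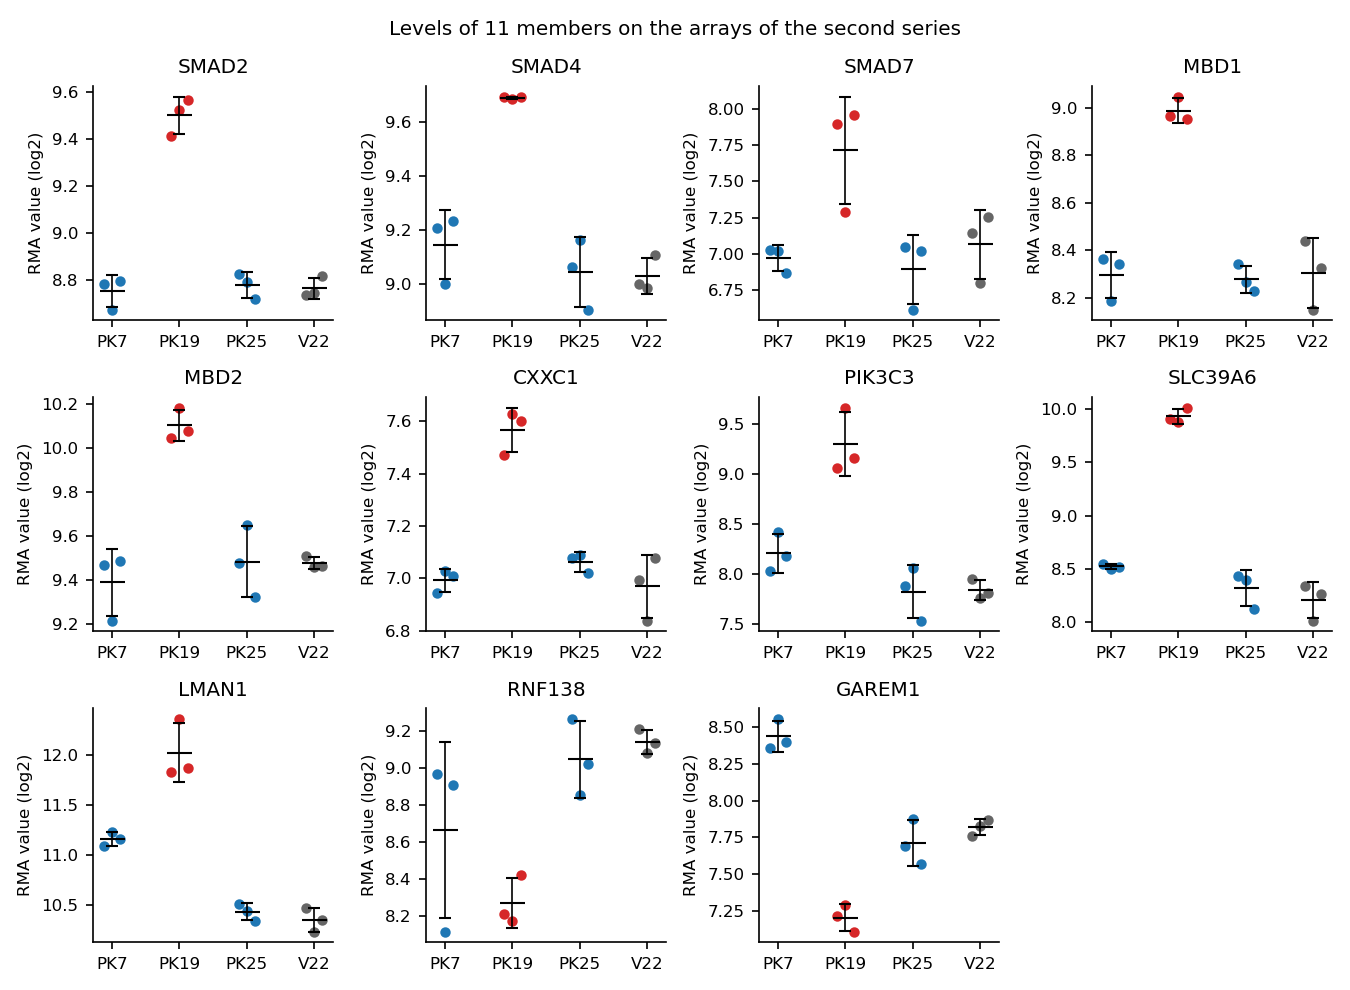
Log2 RMA values of 11 members on the 12 arrays of the second series, with points for arrays, a long bar for the clone mean and error bars of 1 SD (n = 3). PK19 stands apart upward in 9 panels and downward in GAREM1, and in RNF138 its 3 arrays and 1 PK7 array are the lowest.

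The ubiquitin and SUMO ligases ranged widely in PK19, from -0.87 to 1.58 over 4 kept members, and held the lowest kept value of the run. NEDD4L, the ligase that limits epithelial sodium channels and SMAD signalling, differed from V22 by 1.58 in PK19 and by 0.36 in PK7. Its PK19 arrays had levels of 9.22, 9.36 and 9.25, against 7.87, 7.39 and 7.83 in V22, with no overlap. PIAS2, a SUMO ligase, stood at 1.36 and MEX3C, an RNA-binding ligase, at 0.38.

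RNF138, a ligase of the DNA damage response and the first member of the run, was lower in PK19. It had levels of 8.97, 8.12 and 8.91 in PK7, of 8.21, 8.17 and 8.42 in PK19, and of 9.27, 8.85 and 9.03 in PK25, against 9.21, 9.08 and 9.14 in V22 of the second series. The first series gave 9.12, 9.24 and 9.01 in V8 and 9.10, 9.16 and 9.21 in V17, against 9.05, 8.90 and 9.08 in V22. PK19 was 0.87 below V22 (a difference of -0.87) without overlap, and in PK7 1 array of 3 was as low. The dim RNF152, a lysosomal ligase that restrains mTORC1, was the exception in the second stretch, with differences of -0.80 in PK19, -0.43 in PK7, -0.44 in PK25 and -0.37 in V8.

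Genes that read CpG methylation or shape chromatin and transcription had a PK19 median of 0.66 over 6 kept members, all 6 above 0. MBD1, a methyl-CpG binding repressor, had levels of 8.36, 8.19 and 8.34 in PK7, of 8.97, 9.05 and 8.95 in PK19, and of 8.34, 8.27 and 8.23 in PK25, against 8.44, 8.15 and 8.33 in V22 of the second series. It had 8.41, 8.31 and 8.40 in V8 and 8.23, 8.26 and 8.43 in V17, against 8.30, 8.20 and 8.36 in V22 of the first series. The 3 PK19 arrays were the highest of all 21, by 0.68 over V22.

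MBD2, a subunit of NuRD-type repressor complexes, had levels of 9.47, 9.21 and 9.48 in PK7, of 10.05, 10.18 and 10.08 in PK19, and of 9.47, 9.65 and 9.32 in PK25, against 9.51, 9.46 and 9.46 in V22 of the second series. It had 9.43, 9.69 and 9.43 in V8 and 9.43, 9.18 and 9.55 in V17, against 9.41, 9.29 and 9.43 in V22 of the first series. PK19 again stood alone, 0.63 above V22.

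CXXC1, which binds unmethylated CpG and recruits the SETD1 methyltransferases, had levels of 6.94, 7.03 and 7.01 in PK7, of 7.47, 7.63 and 7.60 in PK19, and of 7.08, 7.09 and 7.02 in PK25, against 6.99, 6.84 and 7.08 in V22 of the second series. Its first-series levels were 7.30, 7.03 and 7.43 in V8 and 7.27, 7.10 and 7.45 in V17, against 7.12, 7.07 and 7.20 in V22. PK19 was 0.60 above V22 and above every other array of both series, though by little over the highest V17 array. RPRD1A, which binds the tail of RNA polymerase II, stood at 1.06 and ELP2, a scaffold of the tRNA-modifying Elongator, at 1.03. SETBP1, which binds the SET oncoprotein, differed by 0.37, and the dim INO80C, a subunit of the INO80 remodeller, by -0.11.

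The zinc finger and other DNA-binding factors were the group with the lowest PK19 median, 0.05 over 3 kept members. TCF4, a basic helix-loop-helix factor of neural development, stood at 0.53 in PK19 and at -0.49 in PK25, the lowest kept value of that clone. ZNF532 stood at 0.05 and ZNF24, a regulator of proliferation and VEGF transcription, at -0.31 in PK19 and in PK7 alike. The dim ZNF397 and ZSCAN30 stood at -0.11 and -0.33 in PK19. All but TCF4 and ZNF532 lie in the first stretch of the run.

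Autophagy, membrane traffic and secretion made the largest group, with 12 members, and its 10 kept members ranged from 0.66 to 1.67 in PK19 (median 0.78). PIK3C3 had levels of 8.03, 8.41 and 8.18 in PK7, of 9.06, 9.66 and 9.16 in PK19, and of 7.88, 8.06 and 7.53 in PK25, against 7.95, 7.76 and 7.81 in V22 of the second series. It had 7.85, 8.20 and 7.88 in V8 and 7.76, 8.01 and 8.02 in V17, against 7.83, 7.91 and 8.02 in V22 of the first series. PK19 was apart from all other clones at 1.45 above V22, and PK7 lay above V22 by 0.37 without overlap.

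LMAN1, the cargo receptor for coagulation factors, had levels of 11.09, 11.23 and 11.15 in PK7, of 11.83, 12.36 and 11.87 in PK19, and of 10.51, 10.44 and 10.34 in PK25, against 10.47, 10.23 and 10.34 in V22 of the second series. It had 10.66, 11.04 and 10.66 in V8 and 10.12, 10.09 and 10.26 in V17, against 10.14, 10.22 and 10.30 in V22 of the first series. Both PK19 (1.67) and PK7 (0.81) lay above V22 without overlap, and so did V8 (0.57), which makes LMAN1 a member that differed in 3 clones.

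SEC11C, a catalytic subunit of signal peptidase, had PK19 levels of 9.30, 8.98 and 9.42, against 7.78, 7.54 and 7.68 in V22, a difference of 1.57, while PK7 (-0.13) and PK25 (-0.17) lay slightly below. IER3IP1, a small protein of the endoplasmic reticulum, stood at 0.93, with a second, very dim probe set at 0.22. EPG5, a tether of autophagosomes to lysosomes, stood at 0.80 in PK19 and 0.50 in PK7 and reached 0.84 in V8, the highest kept value of that clone. RAB27B, a GTPase of vesicle release, differed by 0.71, DYM by 0.75, PIGN, an enzyme of GPI anchor synthesis, by 0.75, RELCH, a protein of cholesterol transport, by 0.76 and WDR7 by 0.66. The dim ATP8B1 and MYO5B differed by 0.32 and 0.28.

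Cytoskeletal and spindle genes had a PK19 median of 0.47 over 5 kept members of 8, with a range of 0.20 to 1.00. SKA1, a kinetochore protein, differed by 1.00 in PK19 and TPGS2, a subunit of a tubulin polyglutamylase, by 0.90. SKA1 stood at -0.37 in PK7, whose arrays (7.03, 6.10 and 7.26) overlapped those of V22 (7.20, 7.01 and 7.29). FHOD3, a formin of sarcomeres, stood at 0.46 in PK19 and at -0.71 in PK7. In the first stretch DTNA, dystrobrevin alpha, stood at 0.47 and MAPRE2, a microtubule plus-end protein, at 0.20. Among dim members HAUS1, an augmin subunit, stood at 0.77, KATNAL2 at 0.39 and PSTPIP2 at 0.31, and PSTPIP2 was higher in PK7 (1.10).

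SLC39A6, the zinc importer ZIP6, had the highest value of all members. It had levels of 8.54, 8.50 and 8.52 in PK7, of 9.90, 9.87 and 10.01 in PK19, and of 8.44, 8.40 and 8.13 in PK25, against 8.34, 8.01 and 8.27 in V22 of the second series. It had 8.75, 8.70 and 8.58 in V8 and 8.25, 8.35 and 8.33 in V17, against 8.24, 8.21 and 8.27 in V22 of the first series. PK19 was 3.30-fold over V22 (log2 1.72), and smaller differences without overlap were seen in PK7 (0.32) and V8 (0.43).

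The other genes of metabolism, redox and transport were TXNL1, a thioredoxin of the proteasome (0.90 in PK19), ME2, the mitochondrial malic enzyme (0.76, and -0.57 in PK7), FECH, which inserts iron into haem (0.58), and HDHD2 (0.44). The ME2 levels in PK7 were 9.20, 8.27 and 9.19, against 9.44, 9.39 and 9.55 in V22, so 1 array lay far below the others. ACAA2, a thiolase of mitochondrial fatty acid oxidation, had a difference of 0.06, while its nearest kept members DYM and MBD1 stood at 0.75 and 0.68. The dim MOCOS, the molybdenum cofactor sulfurase, stood at 1.44 and the dim LIPG, endothelial lipase, at 0.12.

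GAREM1, an adaptor of EGF receptor signalling in the first stretch, differed in sign between clones. It had levels of 8.36, 8.56 and 8.40 in PK7, of 7.21, 7.29 and 7.11 in PK19, and of 7.69, 7.88 and 7.56 in PK25, against 7.76, 7.83 and 7.87 in V22 of the second series. It had 7.61, 6.99 and 7.19 in V8 and 7.95, 7.63 and 7.91 in V17, against 7.91, 7.73 and 7.75 in V22 of the first series. PK7 lay above V22 (0.62), and PK19 (-0.62) and V8 (-0.53) lay below it, each without overlap. Of the remaining genes POLI, a translesion DNA polymerase, stood at 0.83 in PK19, MALT1, a paracaspase of NF-kB signalling, at 0.78, and the dim CTIF, ELAC1 and MAPK4 at 0.63, 0.21 and 0.04.

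**Figure D4:**
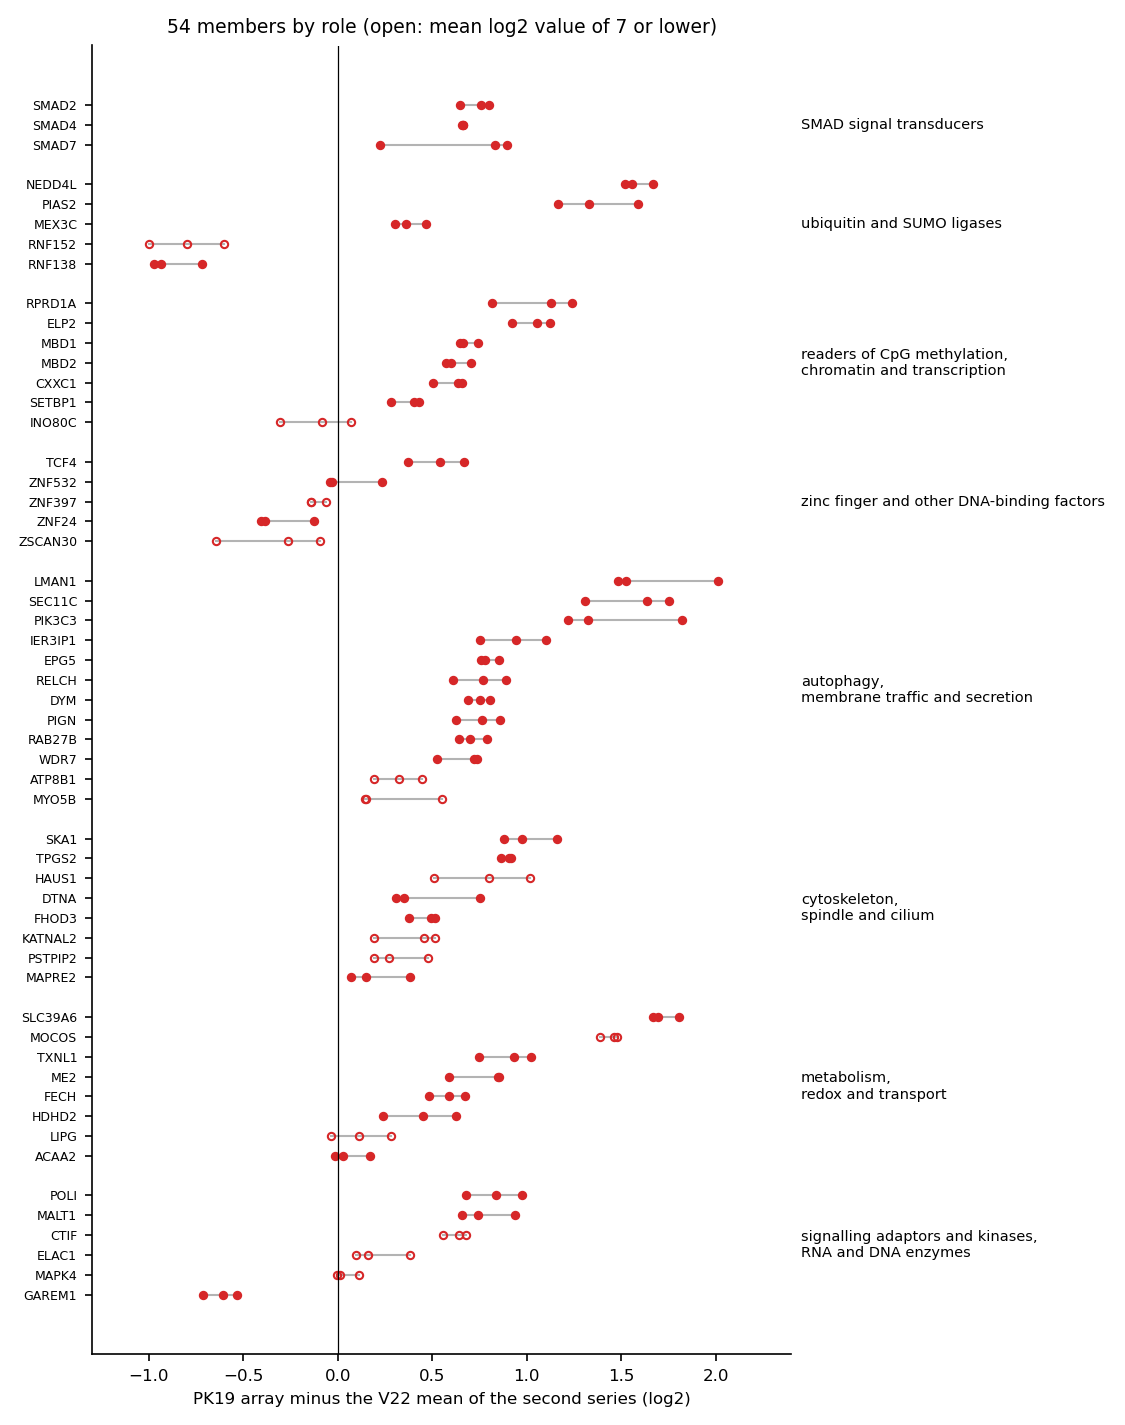
Log2 difference of each PK19 array from the V22 mean of the second series for the 54 measured members, grouped by role, with open points for members whose mean is 7 or lower. The 10 filled members of autophagy, membrane traffic and secretion all lie right of 0, and RNF138, GAREM1, ZNF24 and the dim RNF152, ZNF397 and ZSCAN30 lie left of it on all 3 arrays.

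The level of 7 parted members with like values. Just inside it lay SMAD7 (7.04), SETBP1 (7.10) and ACAA2 (7.14), with PK19 differences of 0.65, 0.37 and 0.06, and just outside it HAUS1 (6.81), ZNF397 (6.74), CTIF (6.68) and ELAC1 (6.68), with 0.77, -0.11, 0.63 and 0.21. Over all 54 members the PK19 median was 0.64. Across the 40 kept members, which share the same arrays, mean level and PK19 difference correlated weakly (r = 0.15, rho = 0.17), given as a description.

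Parkin clones were set against vector clones as a description. The members were chosen on the differences from V22 that make up this contrast. The series were linked by moving each probe set of the first series by its V22 difference. Vector means here count V17 and V22 as 1 sample beside V8 (n = 2), since none of 26947 probe sets was called between them. The lack of calls on 3 arrays each does not show that they are 1 line. SMAD4 was at 9.29 ± 0.35 in parkin clones (SD, n = 3) and 9.02 ± 0.037 in vector clones (SD, n = 2). LMAN1 was at 11.2 ± 0.80 in parkin clones (SD, n = 3) and 10.6 ± 0.42 in vector clones (SD, n = 2). RNF138 was at 8.66 ± 0.39 in parkin clones (SD, n = 3) and 9.24 ± 0.027 in vector clones (SD, n = 2). Set against the linked mean of all 3 vector clones (9.03 for SMAD4, 10.5 for LMAN1 and 9.23 for RNF138), the differences were 0.26, 0.69 and -0.57 in that order. The SD of the parkin clones exceeded the difference for SMAD4 and LMAN1 and was smaller than that for RNF138, which was -0.48 in PK7, -0.87 in PK19 and -0.09 in PK25 against V22.

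Over the kept members the median parkin minus vector difference was 0.20, and it was -0.04 without PK19, 0.30 without PK7 and 0.38 without PK25. No member was called by limma on the means of 3 parkin and 3 vector clones (smallest adjusted p = 0.319), where 0.00371% of all probe sets were. This fit counts V17 and V22 apart, unlike the vector means above. In it 6 members had an unadjusted p under 0.05, as had 14.1% of all probe sets. The members were chosen on differences that enter this fit, so its counts and p-values are no test of the run. The link through V22 is shared by all vector values, and its error is not fully held in these p-values. The other parkin clones, PK7 and PK25, had member medians of 0.08 and -0.05, and the parkin level of each clone was not analysed here. The cause of the PK19 values was not tested.

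V22 was measured in both series, a contrast the choice of members did not use, although the same V22 arrays were the references of that choice. The kept members had a median of 0.03 for the second series minus the first, and all kept genes -0.02. No member passed limma's threshold (smallest adjusted p = 0.373), where 0.0297% of all probe sets did (0.0111% higher and 0.0186% lower), and 3 members had an unadjusted p under 0.05, as had 8.75% of all probe sets. The highest and lowest kept members were NEDD4L, at 0.33, and IER3IP1, at -0.29. Their PK19 differences, which took part in the choice of members, were 1.58 and 0.93.

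Genes encoded elsewhere that work with the members were compared with V22 in the same limma fit, from lists that hold 103 measured genes, 89 of them kept. In PK19, 16 of the 103 (15.5%) were higher and 17 (16.5%) lower, beside 6.65% and 7.40% of all probe sets, with a kept median of -0.01. PK7 had 17 higher and 11 lower (16.5% and 10.7%, beside 7.11% and 8.11% of all probe sets). PK25 had 1 and 3 (0.971% and 2.91%, beside 0.427% and 0.939%) and V8 5 and 8 (4.85% and 7.77%, beside 3.78% and 4.22%). V17 had 0 and 0, in a comparison with no call at all. The list genes were mostly kept, whereas 8719 of all 18374 genes were, so the shares compare sets of unlike brightness. These clones share the V22 arrays of their series.

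Partners of the SMAD members moved both ways in PK19. Of 25 measured receptors, ligands, SMADs and co-repressors, 6 were higher and 6 lower, with a kept median of -0.08. SMAD3, which acts beside SMAD2, had PK19 levels of 9.18, 9.30 and 9.22, against 8.00, 7.74 and 8.04 in V22, and rose by 1.31 (limma adjusted p = 1.8e-08), as it did by 0.56 in PK7 and 0.83 in V8. LTBP1, which tethers latent TGF-beta in the matrix, rose by 0.94 in PK19 (limma adjusted p = 2.5e-05) and fell by 1.83 in PK7. TGFB3, a TGF-beta ligand, fell by 1.43 in PK19 (limma adjusted p = 6.6e-08) and by 0.90 in V8.

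The receptor genes of this list were singled out after their values were seen. TGFBR2, the type II receptor that binds TGF-beta, had PK19 levels of 9.02, 9.05 and 8.95, against 10.04, 10.14 and 10.08 in V22, and fell by 1.08 (limma adjusted p = 3.4e-07). TGFBR1, the type I receptor that phosphorylates SMAD2 and SMAD3, rose by 0.79 (limma adjusted p = 0.00069). Neither receptor passed the threshold in PK7, PK25 or V8.

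Of 27 measured target genes of TGF-beta and SMAD signalling, 5 were higher and 8 lower in PK19, with a median of -0.17 over the kept genes and 0.03 over all 27. ACTA2, smooth muscle actin, fell by 2.85 in PK19 (limma adjusted p = 5.9e-13), by 1.68 in PK7, by 1.44 in PK25 and by 0.69 in V8. TAGLN, an actin-binding protein of smooth muscle, fell by 2.60 in PK19, fell by 2.28 in PK7, fell by 1.65 in PK25 and fell by 1.92 in V8. TGFBI, a matrix protein named for its induction by TGF-beta, rose by 1.51 in PK19, 1.82 in PK7 and 1.08 in V8 and stood at -0.61 in PK25. ACTA2 and TAGLN thus fell in all 3 parkin clones and in V8, and TGFBI differed in sign between clones. A link between the SMAD members and these targets was not tested.

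Complexes that contain a member were described by their other subunits in PK19. Among 7 partners of PIK3C3, BECN1, the beclin subunit, rose by 0.35 (limma adjusted p = 0.0065), ATG14, the subunit of the autophagy form, fell by 0.70 (limma adjusted p = 0.00089), and NRBF2 stood at 0.01. The other augmin subunits HAUS6 and HAUS4 rose by 0.44 and fell by 0.56, with HAUS3 at -0.15. SKA2 and SKA3, the partners of SKA1, stood at -0.01 and -0.34, and of the Elongator subunits ELP3 stood at 0.30, ELP4 at 0.15 and ELP5 at 0.02, with no call in either list.

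In the INO80 list UCHL5, a deubiquitinase, fell by 0.70 (limma adjusted p = 0.0046), the 1 call of 12 genes, with TFPT at -0.33 and RUVBL1 at -0.16. Of 8 COMPASS partners of CXXC1 1 was lower, WDR82 (-0.25, limma adjusted p = 0.041, chosen after its values were seen), and RBBP5, ASH2L and DPY30 stood at 0.19, 0.03 and -0.03. No signal peptidase partner of SEC11C was called, with SPCS1 at 0.23, SEC11A at 0.04 and SPCS3 at 0.04, and none of the MALT1 partners, with BCL10 at -0.15 and CARD10 at 0.02.

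The haem synthesis enzymes besides FECH had 3 higher of 7 measured and none lower in PK19. ALAS1, the housekeeping first enzyme, had PK19 levels of 10.36, 10.23 and 10.39, against 9.74, 9.53 and 9.76 in V22, and rose by 0.65 (limma adjusted p = 0.00078). UROS rose by 0.72 (limma adjusted p = 0.00035) and CPOX by 0.51 (limma adjusted p = 0.0023), and CPOX rose in PK7 (0.54) and V8 (0.41) too. Their median was 0.51 over the 5 kept and 0.011 over all 7 measured, beside 0.58 for FECH itself.

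**Figure D5:**
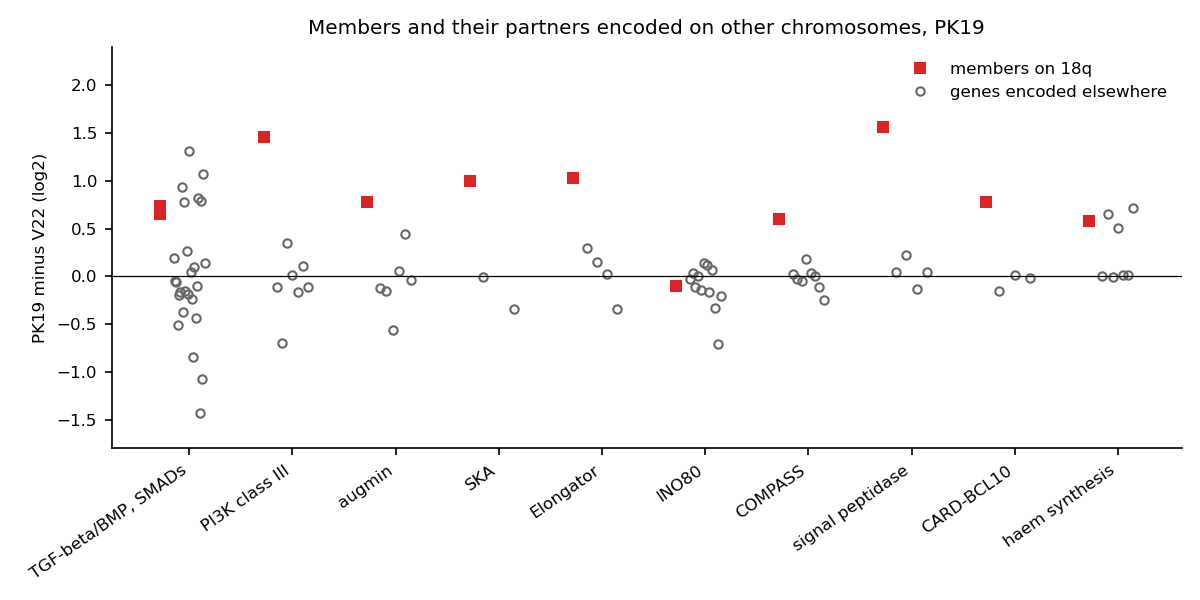
PK19 minus V22 log2 difference of members (squares) and of partner genes encoded outside chromosome 18 (open circles), by complex or pathway. The squares lie at 0.58 or higher apart from INO80C at -0.11, and the partner genes lie on both sides of 0 in most lists.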

How the data were processed

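Total RNA on 21 arrays was labelled by the GeneChip WT kits, per the labels' protocols. The authors deposited RMA intensity values on a linear scale (RMA without version, per the submitters' processing notes). Joint normalization of the 2 series is not given in the sources used here. Log2 values were computed from the deposited values. Gene symbols came from the array's annotation table, which gave 1 symbol for 19305 probe sets (18374 genes), several for 1750 and did not list 5892. Neighbour order and promoters came from RefSeq (GRCh38.p14), whose gene coordinates are otherwise not printed.

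Each clone was compared with V22 of its own series, by limma 3.58.1 (lmFit, eBayes) in R 4.3.3 with 7 group means over 21 arrays and Benjamini-Hochberg adjusted p under 0.05 over 26947 probe sets. Parkin and vector were compared on the means of 3 clones each. The spread of arrays and clones, not a counted depth, limits the precision. The members, gene lists and tests were chosen with earlier results of these data known. Values on every array are given for SMAD2, SMAD4, SMAD7, MBD1, MBD2, CXXC1 and PIK3C3, and, where a clone's member median is over 0.2 from 0, for the 2 kept members farthest in its direction and the 2 farthest the other way. Of each partner list up to 3 kept genes with the largest mean absolute difference over 5 clones are named, with exceptions marked in the text. Alternatives covered normalization, centring, probe set choice, level, dim probe sets, eBayes settings, the groups fitted, the link between series, the set-number block and leaving out arrays or clones. The model was tested on simulated data. Summaries used Python 3.11.15 with pandas 2.3.3 and numpy 2.4.6.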

Additional observations from a re-analysis of the deposited data

How the results depend on the processing

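Of 185 settings of the main medians and counts, 169 left the value within the spread between replicates or the count within 1.5 times. The medians of PK25, V17 and parkin minus vector turned sign in some settings, as given below. The members called in PK7 (13) came to 6 with only PK7 and V22 in the fit, to 7 to 11 without single arrays, and to 7 without PK7 set 2 and V22 set 5 together, a setting chosen after seeing the data. The 1 PK25 call became 0 with only its 2 groups in the fit and 0 without PK25 set 2 and V22 set 5, and 0 to 1 without single arrays. The PK19 median over kept members lay between 0.69 and 0.75 without single arrays, with 36 to 39 members called. Over all measured members it was 0.64. The V8 median over kept members lay between 0.070 and 0.14 without single arrays, and was 0.094 over all measured members. Without single arrays the V17 median lay between -0.015 and 0.073, the PK7 median between 0.025 and 0.12 and the PK25 median between -0.10 and 0.038. Without single clones the parkin minus vector median lay between -0.04 and 0.38. The cause of these shifts was not tested. The set numbers were not taken to pair the arrays, since correlations of same-numbered arrays did not all pass 0.1. Same-numbered arrays correlated at 0.0591 to 0.216 in the first series and -0.0917 to 0.381 among parkin arrays, and differently numbered ones at -0.141 to 0.0533 and -0.365 to 0.323. In the first series every same-numbered pair was thus above every differently numbered one, a hint of a shared set from the data and not from the labels. With a replicate block for the set number, arrays as observations and no adjustment for the series, 9 members were called between parkin and vector. In V8 4 and in V17 0 were called with the block, as without it. The share of all probe sets called with the block was not computed. The blocked parkin fit left out V22 of the second series, so parkin and the series cannot be told apart in it. Nothing is read from its count. V22 of the second series shares no set number with the parkin arrays, so no block could be used there. Dim members enter the counts of called members and of members without overlap, and the medians at a lower level or over all measured members. Of the 38 members called higher in PK19, 34 were kept.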
